A study of Mus musculus with 1 sample.

Results

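The 10 genes described here encode parts of the R-spondin branch of Wnt signalling and secreted modulators of the Wnt pathway. The branch is represented by the ligands *Rspo1* and *Rspo3*, the receptors *Lgr4*, *Lgr5* and *Lgr6*, and the membrane ligases *Znrf3* and *Rnf43*. The secreted modulators are *Sostdc1*, *Sfrp1* and *Dkk3*. They were taken by symbol from the 32285 genes of the count table, where all 10 have a row and at least 1 transcript in the cells kept. R-spondins are secreted proteins that bind LGR receptors and take the ligases ZNRF3 and RNF43 off the cell surface. Those ligases mark Frizzled, the receptor of Wnt proteins, for removal, so a cell with R-spondin bound keeps more Frizzled and answers Wnt more strongly. SFRP1 binds Wnt proteins outside the cell, SOSTDC1 binds Wnt co-receptors and bone morphogenetic proteins, and DKK3 is a divergent member of the Dickkopf family. In the adrenal gland the R-spondin branch is best known in the cortex, where an R-spondin made in the capsule maintains the outer zone. The question here is which cells of a young adrenal medulla carry the transcripts of each member.

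The tissue was adrenal medulla of wild-type mice at postnatal day 15, kept on a mixed background crossed to CD1. Glands of 5 mice, male and female, gave 10 adrenals, which were trimmed by hand of most of the cortex and pooled, and 10000 viable cells went into 1 droplet library. A unique molecular identifier (UMI) stands for 1 transcript molecule, captured by its 3′ end. With 1 library and pooled animals there was nothing to test between, no p-value is given, and all intervals are exact 95% intervals that cover counting error only. A level is the UMIs of a gene summed over the cells of a class, per 1000000 UMIs of that class (CPM), and is compared between classes for 1 gene and not between genes.

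The table held 11214 barcodes with 500 to 33809 UMIs each and 51421499 in all, and 10139 cells (90.4%) passed the filters. Clustering without the 10 members or their pathway genes gave 14 classes with 9290 cells, each named from marker genes and therefore called "-like". There were 1665 adrenaline, 390 noradrenaline and 89 cycling chromaffin-like cells. The catecholamine-making chromaffin cells were joined by 178 sustentacular-like cells, the glia-like support cells of the medulla, and by 93 transitioning adrenaline-like and 322 transitioning noradrenaline-like cells with markers of both. The tissue label is medulla, but 3713 cells were cortex-like, in Wnt4-high, fasciculata-like, inner cortex-like and cycling classes. The Wnt4-high class is named by its detection of *Wnt4*, because only 2 of the 6 outer cortex markers (*Wnt4* and *Dab2*) were detected widely in it. *Wnt4* was found in 71.4% of its cells and in 29% of fasciculata-like cells. Fasciculata markers were also wide in the Wnt4-high class, with *Cyp11b1* in 82.8%, *Akr1b7* in 66.7%, *Mrap* in 62.9% and *Abcb1b* in 48.8% of cells. Endothelial-like (1751), cycling endothelial-like (399), immune-like (601) and fibroblast-like (89) cells made up the rest. The fibroblast-like name rests on *Col1a1*, *Col1a2*, *Col3a1* and *Dcn*, each found in 60.7% to 87.6% of its cells. The other fibroblast markers were sparse there, with *Lum* in 21.3%, *Pdgfra* in 15.7% and *Dpt* in 2.25%. The pericyte marker *Pdgfrb* was found in 55.1% of these cells. Sustentacular-like cells were the shallowest class (median 1146 UMIs) and cycling cortex-like cells the deepest (8204). The sustentacular-like cells also had the highest summed level of the erythroid markers, 10595 CPM, and of the 7 fibroblast markers they held *Col1a1*, *Col1a2* and *Col3a1* but none of *Dcn*, *Lum*, *Pdgfra* and *Dpt*. Immune-like cells carried medullary RNA (*Pnmt*, the enzyme that makes adrenaline, at 1023 CPM) and 12.3% of them were called doublets, so the endothelial-like cells, with 71.9 CPM, served as the background class.

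Of the 10 members, 6 reached 100 UMIs in the classed cells and could be called, and 4 did not. A gene was called in a class where its level there, plus 10 CPM, was at least 4 times that in all other classed cells plus 10. By this rule 4 of the 6 (*Lgr4*, *Lgr5*, *Sostdc1* and *Sfrp1*) were called in at least 1 class, where 13.7% of the 12457 genes tested were. *Znrf3* and *Dkk3* were not called in any class. The members called were *Lgr5* in adrenaline chromaffin-like cells (1.91% of all genes tested were called there), *Sostdc1* in transitioning adrenaline-like cells (0.642%), *Lgr5*, *Sostdc1* and *Sfrp1* in transitioning noradrenaline-like cells (1.49%), *Sostdc1* and *Sfrp1* in sustentacular-like cells (2.74%), and *Lgr4* in inner cortex-like cells (0.626%). No member was called in the other 9 classes, where the share of genes called was 1.3% for noradrenaline chromaffin-like, 0.642% for cycling chromaffin-like, 0.305% for Wnt4-high cortex-like, 0.209% for fasciculata-like and 0.634% for cycling cortex-like cells. It was 3.04% for endothelial-like, 2.15% for cycling endothelial-like, 2.63% for immune-like and 1.56% for fibroblast-like cells. A call also depends on the other classes, because all other classed cells are the reference. *Lgr5* was not called in noradrenaline chromaffin-like cells (300 CPM), whose reference includes the many adrenaline chromaffin-like cells (289 CPM). The missing call there does not stand for a lower level.

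**Figure D1:**
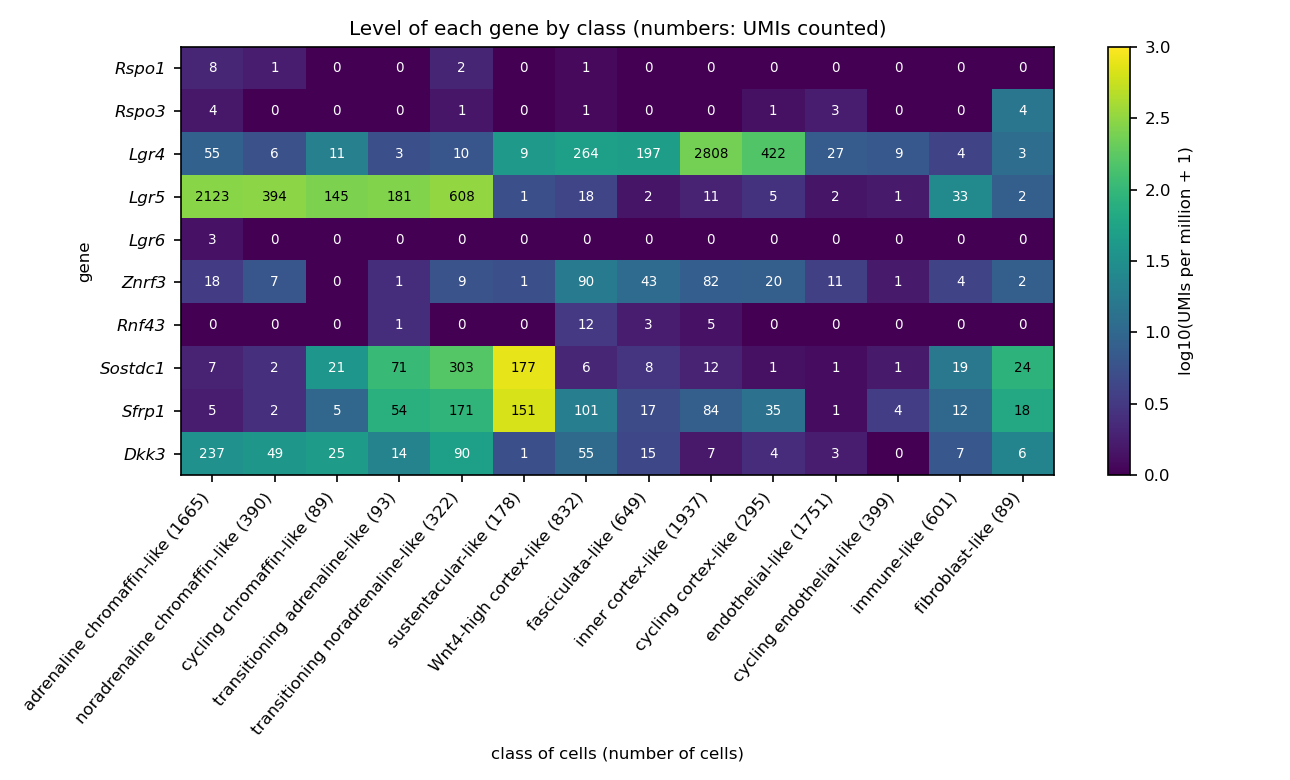
Level of the 10 genes (rows) in the 14 classes of cells (columns, with the number of cells), as log10 of CPM plus 1 in colour and as the UMIs counted in each cell of the grid. *Lgr5* is bright in the 5 chromaffin-like and transitioning classes, and *Lgr4* in the 2 classes of inner and cycling cortex. *Sostdc1* and *Sfrp1* are brightest in sustentacular-like cells, followed by the transitioning classes.

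*Lgr5* lies on chromosome 10 (chr10:115450311-115587780, minus strand), *Lgr4* on chromosome 2 (chr2:109917647-110014257, plus strand) and *Lgr6* on chromosome 1 (chr1:134983301-135105276, minus strand) of GRCm38, the assembly also called mm10. The ligases *Znrf3* (chr11:5276324-5444847, minus strand) and *Rnf43* (chr11:87662722-87735539, plus strand) share chromosome 11. The ligands are *Rspo1* (chr4:124986430-125009099, plus strand) and *Rspo3* (chr10:29452416-29535867, minus strand). The modulators are *Sostdc1* (chr12:36314139-36318452, plus strand), *Sfrp1* (chr8:23411502-23449632, plus strand) and *Dkk3* (chr7:112116017-112159057, minus strand). In the GENCODE M21 annotation all 10 are protein-coding, and 6 of them overlap no other gene. *Lgr5* overlaps the protein-coding gene *A930009A15Rik* on the opposite strand, which had 22 UMIs in all barcodes against 4357 for *Lgr5*. The other overlapping genes that have a row, on *Rspo1*, *Rspo3* and *Rnf43*, had at most 1 UMI.

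The ligands were near the limit of detection in this library. *Rspo1* had 12 UMIs in the classed cells, 9 of them in non-cycling chromaffin-like cells, at 1.04 CPM (0.475 to 1.97). No *Rspo1* UMI was found in the 1751 endothelial-like cells, which allows a level of up to 0.726 CPM. Only 6 of 1665 adrenaline chromaffin-like cells (0.36%) held a *Rspo1* UMI, and 1 of them held 3. In sustentacular-like cells none was found, which at their low depth allows up to 13.1 CPM, so the absence of *Rspo1* from these cells is not shown.

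*Rspo3* had 14 UMIs in the classed cells. Fibroblast-like cells held 4 of them, 1 in each of 4 cells, at 14.2 CPM (3.88 to 36.4), and endothelial-like cells held 3, at 0.726 CPM (0.15 to 2.12). The ratio of 19.6 had an interval of 3.31 to 134, with no call. Fibroblast-like cells also had 4275 CPM of the endothelial markers, against 7948 in endothelial-like cells. All 4 positive fibroblast-like cells had at least 3 fibroblast markers and none had a sustentacular marker. The class was named from fibroblast markers, and its *Sostdc1*-, *Sfrp1*- and *Dkk3*-positive cells all had at least 3 as well. All 4 UMIs were in male cells. Adrenaline chromaffin-like cells also held 4 *Rspo3* UMIs, at 0.545 CPM. The 4 positive cells made up 4.49% of the fibroblast-like class (1.24% to 11.1%, median depth 1989 UMIs), against 0.171% of endothelial-like cells (median depth 1774 UMIs). The other R-spondins, *Rspo2* and *Rspo4*, had 1 and 6 UMIs. No class had more than 8 UMIs of any R-spondin member, and no order of classes can be read from counts this low.

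*Lgr5*, a receptor for R-spondins that marks stem cells in several epithelia, had its highest levels in the chromaffin-like and transitioning classes. Its level was 289 CPM in adrenaline chromaffin-like cells (277 to 302), 300 in noradrenaline chromaffin-like cells (271 to 331) and 256 in cycling chromaffin-like cells (216 to 301). The 2 transitioning classes had 324 CPM (299 to 351) in the noradrenaline and 269 (231 to 311) in the adrenaline branch. These 5 classes were the highest, and each one's interval overlapped that of its neighbour in the order. The next class down was the immune-like class at 25.9 CPM (17.8 to 36.4), and the remaining 8 classes lay at 7.11 or below.

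The adrenaline and noradrenaline branches did not differ in *Lgr5* beyond counting error, with an adrenaline over noradrenaline ratio of 0.965 (0.866 to 1.08) and no member called in either direction (0.305% of genes were called higher and 0.417% lower). The cycling over non-cycling chromaffin-like ratio was 0.88 (0.739 to 1.04). Both intervals lie within 1.5-fold of equality. Transitioning-like over non-cycling chromaffin-like cells gave 1.07 (0.982 to 1.15), while within the transitioning cells the adrenaline over noradrenaline ratio was 0.829 (0.699 to 0.981), in a comparison where no member was called and 0.233% of genes were called higher and 0.241% lower.

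Sustentacular-like cells held 1 *Lgr5* UMI in 178 cells, a level of 4.38 CPM (0.111 to 24.4). The non-cycling chromaffin-like level was 66.3 times as high (11.9 to 2621), and the wide upper bound comes from the single UMI. When cells were named one by one from their own markers no *Lgr5* UMI was left in the sustentacular-like cells and the ratio was at least 11.5-fold, and in female or male cells alone at least 3.27-fold and 3.42-fold. By the 4-fold rule with its added 10 CPM, *Lgr5* was the only member called higher in non-cycling chromaffin-like than in sustentacular-like cells, a call made for 3.19% of genes tested, while *Sostdc1* and *Sfrp1* were called lower, as were 4.21% of genes. Chromaffin markers were also present at a low level in the sustentacular-like cells, 3041 CPM, which is 1.44 *Lgr5* UMIs per 1000 chromaffin marker UMIs there against 3.49 in adrenaline and 4.04 in noradrenaline chromaffin-like cells.

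The share of cells with an *Lgr5* UMI set the same classes apart. It was 57.4% (55% to 59.8%) in adrenaline chromaffin-like cells with a median of 3168 UMIs, 49.7% in noradrenaline chromaffin-like cells, and 0.114% (0.0138% to 0.412%) in endothelial-like cells with a median of 1774 UMIs. Shares in the deeper transitioning and cycling classes were higher, from 67.1% to 69.7%. After each cell was thinned to 1000 UMIs the 5 classes lay close together, from 19.4% to 23.1%, and 0 of 122 sustentacular-like cells were positive, with an upper bound of 2.98%. The highest count in 1 cell was 15.

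Among the adrenaline chromaffin-like clusters the level was not even. The cluster with the lowest median depth (2298 UMIs) had 233 CPM of *Lgr5* (212 to 255) and the deepest (5593 UMIs) had 311 (296 to 327). A small cluster led by *Atf3*, *Egr3* and *Fos*, genes of the immediate early response, had 285 CPM (231 to 347). Across all non-cycling chromaffin-like cells, those above the median depth had 306 CPM (293 to 320) and those at or below it 244 (224 to 266). The part that depth has in the difference between clusters was not tested.

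Cortex-like cells had little *Lgr5*. Their pooled level was 1.47 CPM (1.03 to 2.03), from 36 UMIs in 25 of 3713 cells, of which the Wnt4-high class held 18. Per 1000 chromaffin marker UMIs these classes held 2.21 to 9.35 *Lgr5* UMIs, and chromaffin-like and transitioning classes held 3.49 to 7.11. In the immune-like cells, which had 33 *Lgr5* UMIs, the figure was 4.83.

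*Lgr4*, the more widely expressed receptor of the same family, was highest in cortex-like classes. Its level was 234 CPM (226 to 243) in inner cortex-like cells and 151 (137 to 166) in cycling cortex-like cells. Wnt4-high cortex-like cells had 47.8 CPM (42.2 to 53.9), fasciculata-like cells 46.3 (40.1 to 53.3) and sustentacular-like cells 39.4 (18 to 74.9), and these 3 do not differ beyond counting error. All other classes lay between 3.14 and 19.4 CPM. *Lgr4* was called in the inner cortex-like class and in no other, where 0.626% of genes tested were called.

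**Figure D2:**
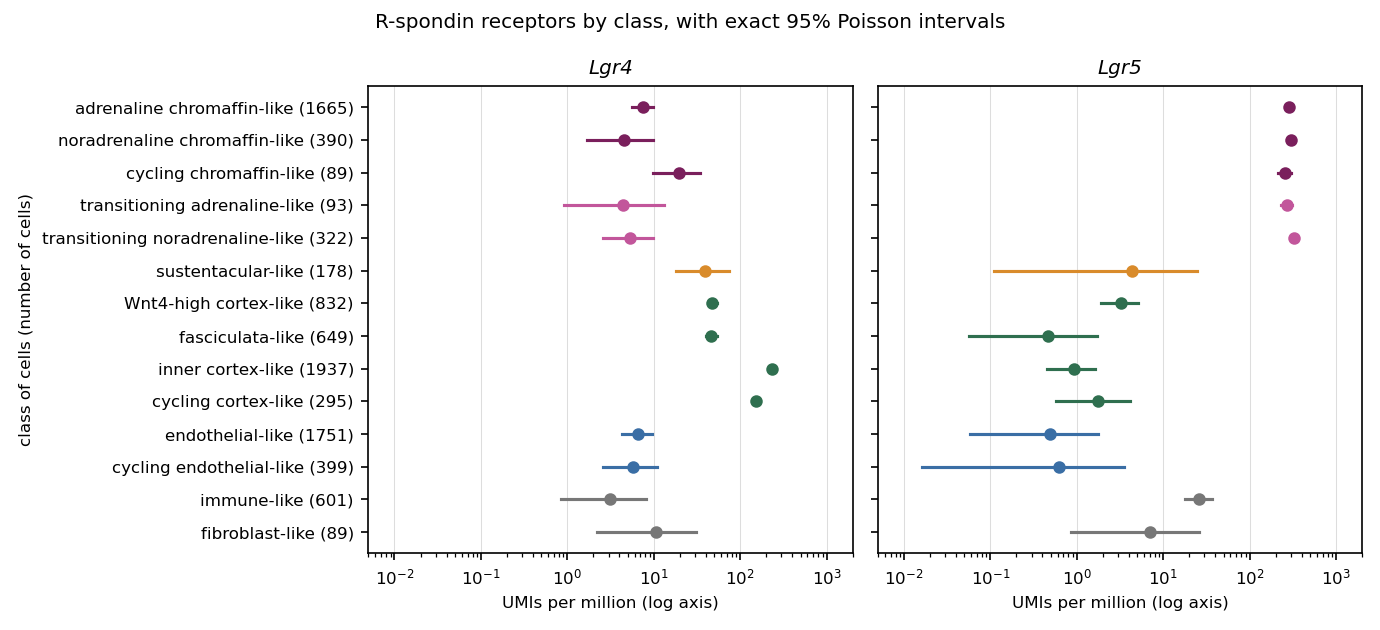
Levels of *Lgr4* (left) and *Lgr5* (right) in the 14 classes, in CPM on a log axis, with points for the level and lines for exact 95% Poisson intervals. The 5 chromaffin-like and transitioning classes lie at 256 to 324 CPM for *Lgr5* and at 4.46 to 19.4 for *Lgr4*, while the 4 cortex-like classes lie at 0.47 to 3.26 for *Lgr5* and at 46.3 to 234 for *Lgr4*.

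Cortex-like cells as a whole had 150 CPM of *Lgr4* (145 to 155) against 7.04 (5.39 to 9.05) in non-cycling chromaffin-like cells, a ratio of 21.3 (16.6 to 28). In this comparison *Lgr4* was the only member called higher in cortex, as were 3.05% of genes, and *Lgr5* the only one called lower, as were 4.27%. The ratio was reversed for *Lgr5*, whose cortex-like over non-cycling chromaffin-like value was 0.00504 (0.00352 to 0.007).

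Within the cortex, *Lgr4* was highest in the inner class. Inner cortex-like over fasciculata-like cells gave 5.06 (4.38 to 5.88), and *Lgr4* was the only member called there, with 0.682% of genes called higher and 0.433% lower. The Wnt4-high over fasciculata-like ratio was 1.03 (0.854 to 1.25), and no member was called in that comparison, where 0.835% of genes were called higher and 0.00803% lower. The inner cortex-like class joins 2 clusters, in which *Lgr4* reached 267 CPM (255 to 278) at a median depth of 7025.5 UMIs and 176 (163 to 189) at 3517. Inner cortex markers such as *Akr1c18*, a steroid-reducing enzyme of the transient X-zone of young mice, were also high in cycling cortex-like cells (6811 CPM against 7280 in inner cortex-like and 54.8 in fasciculata-like cells). *Lgr4* was detected in 62.7% of inner cortex-like cells (60.5% to 64.8%, median depth 4854 UMIs) and in 1.48% of endothelial-like cells, and with 1000 UMIs per cell in 20.3% and 0.744%.

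The low *Lgr4* of the other classes was read beside the cortex RNA they carried. Endothelial-like cells held 11.3 *Lgr4* UMIs per 1000 UMIs of the 8 cortex markers, where the cortex-like classes held from 1.2 (fasciculata-like) and 1.99 (Wnt4-high) to 9.7 (cycling) and 10.5 (inner). Chromaffin-like and transitioning classes held 23.5 to 107, and sustentacular-like cells 72, from 9 UMIs in 9 cells. Their sources were not tested further. The sustentacular-like over transitioning-like ratio of *Lgr4* was 7.73 (2.92 to 19.5), and cycling over non-cycling chromaffin-like cells gave 2.76 (1.31 to 5.28) from 11 UMIs, with no call in either comparison.

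Both receptors were rarely found in the same cell. Of 2144 chromaffin-like cells, 1162 had *Lgr5* without *Lgr4*, 22 *Lgr4* without *Lgr5*, and 50 both (2.33%). The product of the 2 shares is 1.9%, and the cells with both were deep, with a median of 8280.5 UMIs against 3097.5 in the class. In inner cortex-like cells 1207 had *Lgr4* alone, 3 *Lgr5* alone and 7 both. A set of 237 cells that was left unclassed because it showed chromaffin and cortex markers together had 123 CPM of *Lgr4* and 119 CPM of *Lgr5*. *Lgr6*, the third receptor, had 3 UMIs in the library, all in adrenaline chromaffin-like cells, and none in the 3713 cortex-like cells, which allows up to 0.122 CPM.

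*Znrf3*, which encodes a ligase that R-spondins inactivate and which is itself induced by Wnt signalling, was low in every class. It was highest in Wnt4-high cortex-like cells, at 16.3 CPM (13.1 to 20). The other cortex-like classes followed, with 10.1 (7.32 to 13.6) in fasciculata-like, 7.13 (4.36 to 11) in cycling and 6.85 (5.44 to 8.5) in inner cortex-like cells. Fibroblast-like cells had 7.11 CPM, from 2 UMIs. Of the cortex-like classes only the Wnt4-high class stood apart from inner cortex-like cells beyond counting error. Its ratio over fasciculata-like cells was 1.61 (1.11 to 2.37). Non-cycling chromaffin-like cells had 2.89 CPM (1.87 to 4.26) and endothelial-like cells 2.66 (1.33 to 4.76), which do not differ beyond counting error.

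The cortex-like over non-cycling chromaffin-like ratio of *Znrf3* was 3.31 (2.19 to 5.23), below the 4-fold rule, and in female cells alone 6.0 (1.98 to 29.8). The order of the cortex-like classes was not that of *Lgr4*, which was highest in inner cortex-like cells. In sustentacular-like cells 1 *Znrf3* UMI was found, and in the 89 cycling chromaffin-like cells none, which allows up to 5.29 CPM. *Rnf43*, the paralogous ligase, had 21 UMIs in the classed cells, of which 20 were in cortex-like and 12 in Wnt4-high cortex-like cells, at 2.17 CPM (1.12 to 3.79). In the 2055 non-cycling chromaffin-like cells none was found, which allows up to 0.346 CPM, below the 0.814 CPM (0.497 to 1.26) of cortex-like cells. For both ligases the Wnt4-high class had the highest level of the cortex-like classes.

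*Sostdc1* and *Sfrp1* shared a class. In sustentacular-like cells *Sostdc1* reached 776 CPM (666 to 899) and *Sfrp1* 662 (560 to 776). The transitioning noradrenaline-like class followed at 162 (144 to 181) and 91.2 (78 to 106), then the transitioning adrenaline-like class at 106 (82.4 to 133) and 80.2 (60.3 to 105). Non-cycling chromaffin-like cells had 1.04 CPM of *Sostdc1* (0.475 to 1.97) and 0.808 of *Sfrp1* (0.325 to 1.67), near the 0.242 of both in endothelial-like cells.

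The steps between these classes were large. The sustentacular-like level over the transitioning-like level was 5.28 for *Sostdc1* (4.39 to 6.34) and 7.49 for *Sfrp1* (6.06 to 9.25), and both were called, as were 1.86% of genes. *Lgr5* was called lower there, as were 2.92% of genes. The transitioning-like level over the non-cycling chromaffin-like level was 141 for *Sostdc1* (73.6 to 311) and 109 for *Sfrp1* (52.2 to 275), again both called, with 0.875% of genes called higher and 0% lower. The size of the *Sostdc1* ratio rests on 9 UMIs in the non-cycling chromaffin-like cells, whose level of 1.04 CPM became 17.1 (154 UMIs) when cells were named one by one from their own markers. Because the transitioning class is defined by chromaffin and sustentacular markers together, an intermediate level of a sustentacular gene there follows in part from how the class was named.

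**Figure D3:**
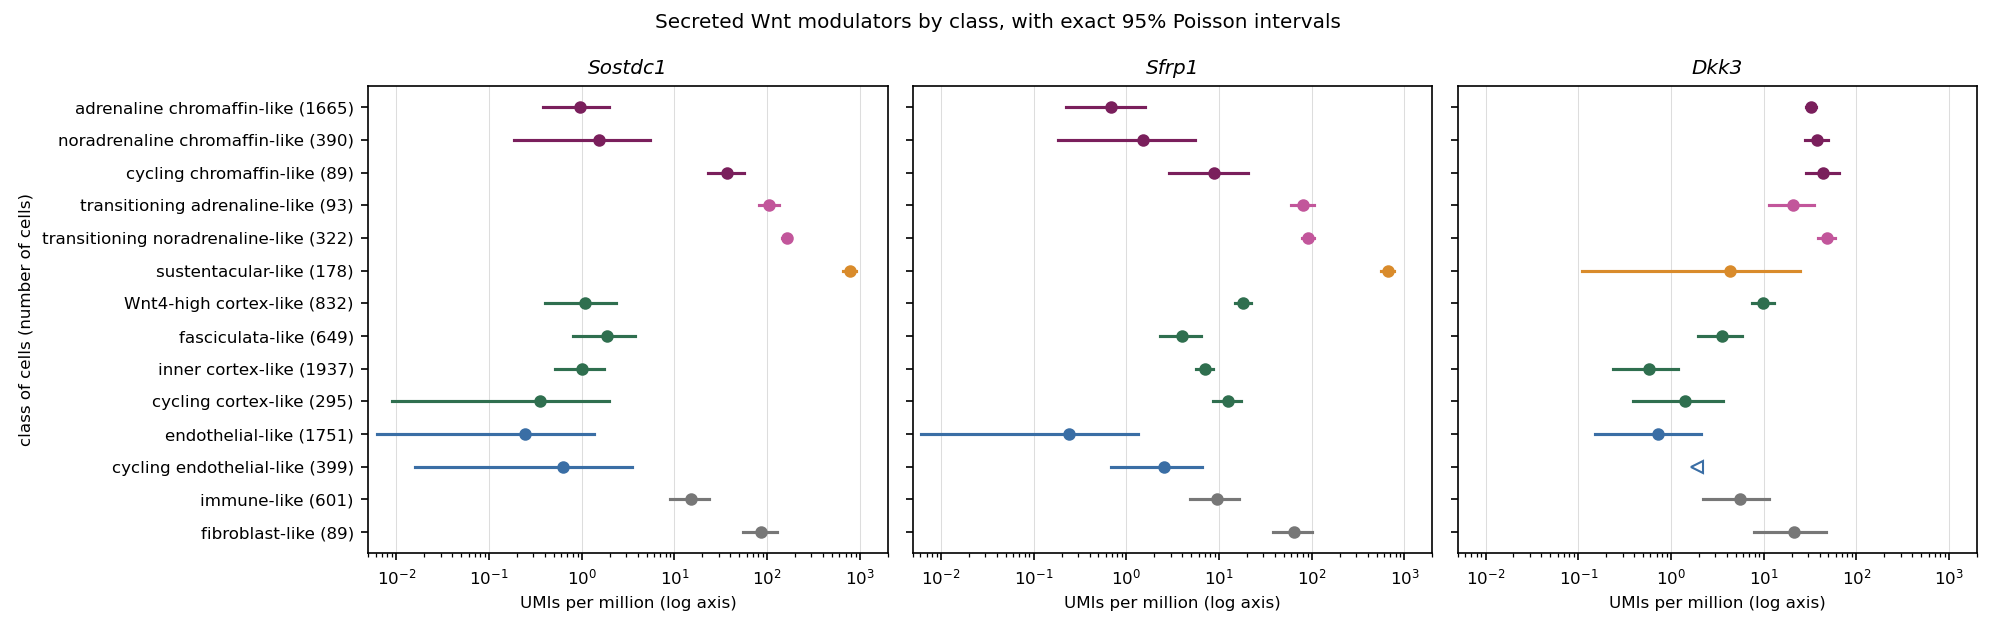
Levels of *Sostdc1*, *Sfrp1* and *Dkk3* in the 14 classes, in CPM on a log axis, with exact 95% Poisson intervals as lines and an open triangle at the level that 3 UMIs would give where none was found. *Sostdc1* and *Sfrp1* are highest in sustentacular-like cells at 776 and 662, and *Dkk3* is at 20.8 to 48 in the chromaffin-like and transitioning classes and at 21.3 in fibroblast-like cells.

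The share of cells with a *Sostdc1* UMI did not follow the level. It was 48.9% (41.3% to 56.5%) in sustentacular-like cells at a median of 1146 UMIs, 50.9% in transitioning noradrenaline-like cells at 4648.5 and 46.2% in transitioning adrenaline-like cells at 6383. *Sostdc1* was found in 0.0571% of endothelial-like cells at 1774. With 1000 UMIs per cell the shares in these 4 classes were 47.5%, 19.1%, 15.1% and 0%, in the order of the levels. *Sfrp1* was found in 53.4% (45.8% to 60.9%) of sustentacular-like cells, and with 1000 UMIs per cell in 42.6% of them and in 10.6% of transitioning noradrenaline-like cells. Shallow sustentacular-like cells had levels of both genes whose intervals overlap those of deep ones.

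Of the 178 sustentacular-like cells 52 had both (29.2%, where the product of the shares is 26.1%), 35 *Sostdc1* only, 43 *Sfrp1* only and 48 neither. *Sfrp1* was detected in 59.8% of the cells with *Sostdc1* and in 47.3% of the cells without. In transitioning noradrenaline-like cells the corresponding shares were 47% and 33.5%, and the cells with both were deeper than the class (5389 against 4648.5 UMIs at the median). Almost all sustentacular-like cells with either gene also had a sustentacular marker, 87 of 87 for *Sostdc1* and 94 of 95 for *Sfrp1*. Since the class was named from these markers, such counts are nearly fixed in advance. At least 3 of the markers were found in 69 of the 87 cells, in 73 of the 95 and in 130 of all 178.

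Transitioning cells held the receptor and the modulators together. Of 415 such cells, 144 (34.7%) had both *Lgr5* and *Sostdc1* and 117 (28.2%) both *Lgr5* and *Sfrp1*, where the products of the single shares are 33.7% and 26.3%. None of the cells with either pair was called a doublet, but few transitioning-like cells were (0.482%, against 7.05% of all cells kept). Because the class is named from markers of both cell types, these calls do not decide whether such cells are single. Doublets and carried-over RNA as sources of these pairs were not tested further. In 2144 chromaffin-like cells 12 (0.56%) had *Lgr5* with *Sostdc1* and 5 (0.233%) *Lgr5* with *Sfrp1*. The products of the single shares there are 0.369% and 0.211%, and 8 of the 12 cells were cycling chromaffin-like.

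The members did not all sit at the same point between the flanking classes. In transitioning noradrenaline-like cells *Sostdc1* was at 0.208 and *Sfrp1* at 0.138 of the sustentacular-like level, where the 7 sustentacular markers lay between 0.142 and 0.273. *Lgr5* there was at 1.08 and *Dkk3* at 1.29 of the noradrenaline chromaffin-like level, where the 7 chromaffin markers lay between 0.589 and 1.04. In transitioning adrenaline-like cells *Sostdc1* was at 0.136 and *Sfrp1* at 0.121 of the sustentacular-like level (markers 0.0974 to 0.148), and *Lgr5* at 0.931 and *Dkk3* at 0.645 of the adrenaline chromaffin-like level (markers 0.463 to 1.3). *Lgr5* was thus near its chromaffin-like level in both transitioning classes. For *Lgr5* and *Dkk3* alike, the interval in each transitioning class overlapped that of the chromaffin-like class of the same branch. Their places above or below the chromaffin-like level are therefore within counting error.

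**Figure D4:**
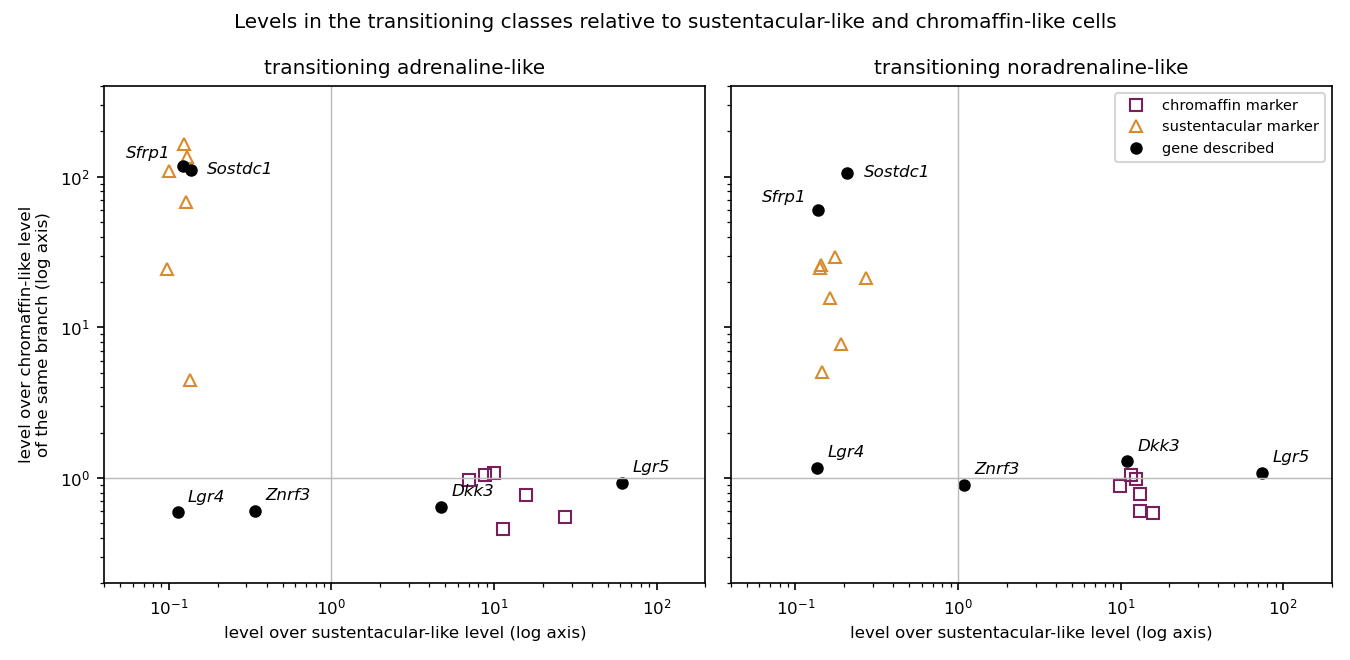
Levels in the transitioning adrenaline-like (left) and noradrenaline-like (right) classes, divided by the sustentacular-like level (x axis, log) and by the chromaffin-like level of the same branch (y axis, log), for 6 members (black) and for the chromaffin (squares) and sustentacular (triangles) markers. Genes with a level of 0 in a divisor are left out. *Lgr5* lies near 1 on the y axis (0.931 and 1.08), and *Sostdc1* and *Sfrp1* lie between 0.121 and 0.208 on the x axis.

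Outside these classes *Sostdc1* and *Sfrp1* parted. In cortex-like cells *Sfrp1* had 9.65 CPM (8.46 to 11), 11.9 times the non-cycling chromaffin-like level (5.71 to 30), whereas *Sostdc1* had 1.1 (0.724 to 1.6) and a ratio of 1.06 (0.483 to 2.56). That *Sostdc1* ratio turned to 0.0444 (0.0248 to 0.0745) when cells were named one by one from their own markers, and to 0.243 in female cells with 1 UMI on each side. *Sfrp1* was highest among the cortex-like classes in Wnt4-high cells, at 18.3 CPM (14.9 to 22.2), 4.57 times the fasciculata-like level (2.72 to 8.15), though below the 4-fold rule once 10 CPM was added. Cycling cortex-like cells had 12.5 CPM (8.7 to 17.4) and inner cortex-like cells 7.01 (5.59 to 8.68), a pair whose intervals just miss each other. Cortex-like classes held 0.944 to 3.23 *Sfrp1* UMIs per sustentacular marker UMI, where sustentacular-like cells held 0.14.

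Fibroblast-like cells had 85.4 CPM of *Sostdc1* (54.7 to 127) and 64 of *Sfrp1* (37.9 to 101), and both were called over endothelial-like cells, where 2.13% of genes were called higher and 0.0562% lower. The *Sostdc1* level came mostly from male cells, with 19 UMIs in 21 cells (170 CPM) against 1 UMI in 24 female cells (12.8 CPM). Fibroblast-like cells also had 459 CPM of the sustentacular markers, none of the 7 at 0, against 1.94 in endothelial-like cells. Markers of other cell types were present as well, with 4275 CPM of endothelial, 2159 of chromaffin and 2116 of cortex markers. Endothelial-like cells had 7948 CPM of the endothelial markers, so the 2 classes compared are not cleanly apart. Per sustentacular marker UMI the fibroblast-like cells held 0.186 *Sostdc1* and 0.14 *Sfrp1*, and sustentacular-like cells 0.164 and 0.14. All 10 *Sostdc1*-positive fibroblast-like cells had a sustentacular marker and 7 had at least 3 of them, as did 10.1% of the whole class. Of the 15 *Sfrp1*-positive ones, 11 had a sustentacular marker and 6 at least 3, and all positive cells of both genes had at least 3 fibroblast markers. So did 18 of the 87 *Sostdc1*-positive and 16 of the 95 *Sfrp1*-positive sustentacular-like cells. Having 3 fibroblast markers thus does not set the 2 classes apart. In immune-like cells 6 of the 9 *Sostdc1*-positive cells had at least 3 sustentacular markers, and all 5 with both genes were called doublets.

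In cycling chromaffin-like cells *Sostdc1* stood at 37.1 CPM (22.9 to 56.6), 35.7 times the non-cycling level (15.7 to 88.4), and was the only member called there, with 1.22% of genes called higher and 0.0241% lower. This rests on 21 UMIs in 9 of 89 cells. The sustentacular markers stood at 120 CPM in that class against 15.1 in adrenaline chromaffin-like cells, and *Sostdc1* per sustentacular marker UMI was 0.309. *Sfrp1* was at 8.82 CPM (2.86 to 20.6) there, from 5 UMIs in 2 cells. The part of cells with sustentacular markers in this difference was not tested.

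*Dkk3* went with the chromaffin-like classes. Its level was 32.3 CPM (28.3 to 36.6) in adrenaline, 37.3 (27.6 to 49.3) in noradrenaline and 44.1 (28.5 to 65.1) in cycling chromaffin-like cells. Transitioning noradrenaline-like cells had 48 (38.6 to 59) and transitioning adrenaline-like cells 20.8 (11.4 to 34.9), a ratio of 0.433 (0.228 to 0.766) for the latter over the former. The 3 chromaffin-like classes overlap in their intervals, and the adrenaline over noradrenaline ratio was 0.866 (0.634 to 1.2).

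Fibroblast-like cells had 21.3 CPM of *Dkk3* (7.83 to 46.4) from 6 UMIs, an interval that overlaps those of the chromaffin-like and transitioning classes. Wnt4-high cortex-like cells had 9.95 (7.5 to 13) and sustentacular-like cells 1 UMI. Non-cycling chromaffin-like over sustentacular-like cells gave 7.54 (1.34 to 299), and cortex-like over non-cycling chromaffin-like cells 0.0999 (0.0771 to 0.128), with no call in either because of the added 10 CPM. In Wnt4-high cortex-like cells *Dkk3* came to 21 UMIs per 1000 chromaffin marker UMIs, against 0.39 in adrenaline chromaffin-like cells. With 1000 UMIs per cell the share with *Dkk3* was 2.6% in the adrenaline chromaffin-like, 3.75% in the transitioning noradrenaline-like and 0% in the endothelial-like class (medians 3168, 4648.5 and 1774 UMIs).

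Sex could be assigned to 1954 female and 3996 male cells from *Xist* and Y-linked genes. Neither signal was found in 3976 cells, among them 128 of the 178 sustentacular-like cells, and 213 cells had both. All 10 members were compared in every class, with no correction for the number of comparisons. Some intervals that exclude 1 are therefore likely from counting error alone. *Lgr5* was lower in female than in male cells in each of the 5 chromaffin-like and transitioning classes, with female over male ratios from 0.736 to 0.975. The interval excluded 1 in adrenaline chromaffin-like cells (0.777 to 0.999) and in transitioning noradrenaline-like cells (0.625 to 0.947). *Lgr4* in inner cortex-like cells was 1.18 times as high in female cells (1.07 to 1.3). *Znrf3* over all cortex-like cells gave 1.67 (1.23 to 2.25), but within Wnt4-high, fasciculata-like and inner cortex-like cells the ratios of 1.22, 1.79 and 1.54 each had an interval that included 1. *Sfrp1* in transitioning adrenaline-like cells gave 2.08 (1.11 to 3.84). Over all cortex-like cells the *Lgr4* ratio was 0.911 (0.837 to 0.989), on the other side of 1 from the inner class. In Wnt4-high, fasciculata-like and cycling cortex-like cells it was 1.01, 1.06 and 0.809, each with an interval that included 1. The sexes differed in their mix of classes, with 310 of 817 female and 1006 of 1869 male cortex-like cells in the inner class. The part of this mix in the pooled *Lgr4* and *Znrf3* ratios was not tested. *Sostdc1* gave 0.726 (0.524 to 0.994) in transitioning noradrenaline-like cells, and from few UMIs 5.35 (1.7 to 18.3; 9 female and 6 male UMIs) in cycling chromaffin-like cells and 0.0757 (0.00182 to 0.476) in fibroblast-like cells. *Rspo1* in adrenaline chromaffin-like cells gave 10.3 (1.85 to 105), from 6 female and 2 male UMIs. How many mice of each sex were pooled is not given in the sources used here, so differences between sexes cannot be told apart from differences between animals.

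**Figure D5:**
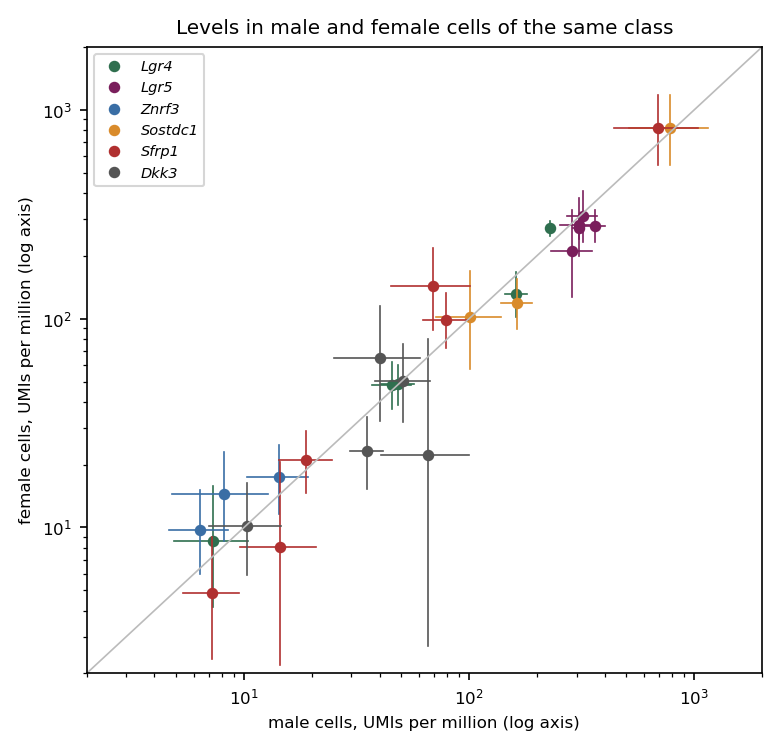
Levels in female cells (y axis) against male cells (x axis) of the same class, in CPM on log axes, for the 27 pairs of gene and class with more than 20 UMIs in all, with exact 95% Poisson intervals as lines and the line of equality in grey. The 5 *Lgr5* points lie at 211 to 311 CPM in female and 287 to 361 CPM in male cells.

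The members were set beside 40 other genes of the pathway, of which 17 reached 100 UMIs and 4 were called in a class. None of the 2 other R-spondins could be called. Of the 13 Wnt receptors and co-receptors, 7 were tested and *Fzd4*, a Frizzled receptor, was called in endothelial-like cells at 172 CPM (159 to 185). Of the 18 other secreted or cell-surface modulators, 5 were tested and 2 were called. *Sfrp5*, a relative of *Sfrp1*, was called in sustentacular-like cells at 298 CPM (231 to 378) and in transitioning noradrenaline-like cells at 51.2 (41.5 to 62.5), the same 2 classes as *Sfrp1*. *Frzb*, another secreted Frizzled-related protein, was called in fasciculata-like cells at 362 (344 to 381), with 158 in Wnt4-high cells (147 to 169) and 41.7 in inner cortex-like cells (38.1 to 45.5). Of the secreted Frizzled-related genes called, *Sfrp1* and *Sfrp5* thus shared their classes and *Frzb* had another, although *Sfrp1* was also detected in cortex-like cells.

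Of the 7 Wnt target genes, 5 were tested and *Ccnd1*, the G1 cyclin, was called in endothelial-like cells (737 CPM, 711 to 763) and in cycling endothelial-like cells (603, 565 to 642). *Axin2*, a target induced by Wnt in many tissues, was not called, and its level was 29.8 CPM (26 to 34) in adrenaline chromaffin-like, 18.2 (11.7 to 27.1) in noradrenaline chromaffin-like, 37.1 (22.9 to 56.6) in cycling chromaffin-like and 22.4 (18.7 to 26.7) in Wnt4-high cortex-like cells. It was 0.918 CPM (0.458 to 1.64) in inner cortex-like cells, where *Lgr4* was highest, and no *Axin2* UMI was found in sustentacular-like cells, which allows up to 13.1. *Nkd2*, another gene of the target list and named here after its values were seen, was under 100 UMIs in all and highest in sustentacular-like cells, at 74.5 CPM (43.4 to 119) from 17 UMIs, with 1 UMI in adrenaline and none in noradrenaline chromaffin-like cells. The rest of the list differed. In sustentacular-like cells *Nkd1* and *Sp5* had no UMI, *Lef1* had 1, *Tcf7* 2 and *Ccnd1* 36 (158 CPM). *Nkd1* and *Tcf7* were highest in Wnt4-high cortex-like cells, at 21.7 and 32.9 CPM. *Lef1*, a transcription factor of the pathway, had levels of 33.5 CPM (24.3 to 44.9) and 32 (24.4 to 41.2) in the noradrenaline chromaffin-like and transitioning noradrenaline-like classes, against 4.22 (2.87 to 5.99) in the adrenaline chromaffin-like class. In transitioning adrenaline-like cells *Axin2* was at 35.7 CPM (22.9 to 53.1) and *Lef1* at 4.46 (0.919 to 13), and in transitioning noradrenaline-like cells *Axin2* was at 10.7 (6.52 to 16.5). Between the 2 chromaffin-like classes the *Lef1* intervals do not overlap and those of *Axin2* overlap narrowly, and between the 2 transitioning classes the intervals of neither gene overlap. No ratio was taken for these genes, and a narrow overlap of single intervals does not show that the *Axin2* levels are equal.

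For the 6 members that could be tested, the 3 genes with the most similar levels over the 14 classes were found among 10981 genes, by Pearson's r of log2 of CPM plus 10. Classes share 1 library and differ in depth, so these values are descriptions. The nearest genes to *Lgr5* were *Scn3a*, a sodium channel subunit (r = 0.995), *Gfra4*, a receptor of the GDNF family (0.994), and *Ptprn*, a protein of secretory granules (0.994). Those nearest to *Lgr4* were *Mkx* (0.965), *Tlcd1* (0.962) and *Me1*, malic enzyme (0.954), and *Me1* rose from 495 CPM in Wnt4-high to 893 in fasciculata-like and 3545 in inner cortex-like cells.

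The nearest genes reported for *Sostdc1* were *Scrg1* (0.993) and the sodium channel gene *Scn7a* (0.989), which is also a sustentacular marker. Those nearest to *Sfrp1* were *Pdgfa*, a growth factor (0.983), *Abca8a* (0.973) and *Tgfb2*, a growth factor (0.971), all of them highest in sustentacular-like cells. For *Dkk3* they were *Trim9* (0.959), *Ildr2* (0.951) and *Ina*, a neuronal intermediate filament (0.95), and for *Znrf3* *Zfp395* (0.934), *Lipt1* (0.907) and *Arrdc3* (0.887). Between members, r was 0.942 for *Sostdc1* with *Sfrp1*, 0.898 for *Lgr5* with *Dkk3* and -0.534 for *Lgr4* with *Lgr5*.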

How the data were processed

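The matrix deposited by the authors holds whole-number UMI counts for each barcode, not normalized, and the submitters' processing notes name Cell Ranger 4.0.0 and mm10; the annotation release is not given in the sources used here. The sorted Sox2 library of the study is not analysed here.

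Cells with 500 to 5000 genes and at most 20% mitochondrial UMIs were kept, as in the study. Seurat 5.3.0 in R 4.3.3 (with Matrix 1.6.5 and SeuratObject 5.2.0) took the genes found in at least 3 cells and normalized their counts. The 2000 variable features were scaled, and cells were grouped with 10 principal components and resolution 0.4. Unlike in the study, the members and pathway lists (50 genes) were left out of the variable features. Medullary clusters were extracted and clustered again in 3 passes, to 2737 cells in 8 clusters. To be named, a cluster needed 3 or more markers from 1 list, each found in 50% of its cells, or in 25% for the sustentacular, cycling, cortical zone, capsule and mesothelial lists. Chromaffin-like clusters with *Pnmt* in 50% of cells were named adrenaline. A cortex-like cluster not named cycling or inner cortex was named Wnt4-high with *Wnt4* in 50% of cells, even where it had fasciculata markers. These percentages were set after the clusters had been seen. The markers were *Cyb561*, *Slc18a1*, *Th*, *Chgb*, *Chga*, *Dbh* and *Ddc* for chromaffin, and *Lgi4*, *Fabp7*, *Cdh19*, *Sox10*, *S100b*, *Erbb3* and *Scn7a* for sustentacular cells. Pericyte, erythroid, capsule and mesothelial lists named no cluster. The 849 unclassed cells were in clusters with 2 marker lists or none, or among the 240 left out when medullary clusters were clustered again, and 60.4% of them were called doublets. Scrublet (scanpy 1.11.5, expected rate 8%) called 715 cells (7.05%); doublets were left out only as an alternative.

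Other steps used Python 3.11.15, numpy 2.4.6, scipy 1.17.1, pandas 2.3.3 and matplotlib 3.10.9. Intervals are Poisson for levels, Clopper-Pearson for shares and conditional binomial for ratios. A count of 0 allows 3 counts of the total. Thinning drew 1000 UMIs per cell without replacement and left out shallower cells, 56 of the 178 sustentacular-like and 272 of the 1751 endothelial-like. Named genes were the 10 members, the pathway genes called by the 4-fold rule, *Axin2* and *Lef1*, and, for each member with 100 UMIs, the 3 genes with the most similar levels among those with 200; one gene that this rule covers is not reported here. The members and lists were chosen with earlier results of these data known. *Nkd1*, *Nkd2*, *Tcf7* and *Sp5* fall outside the naming rule and were named after their values were seen. Coordinates are from GENCODE M21. Calls and intervals were tested on simulated counts, drawn under the counting model that the intervals assume. Variation between cells was not simulated. Known changes were set only in genes above a minimum level, so calls of changes at the lowest levels were not examined. The alternatives were resolutions of 0.2 and 0.8, 30 principal components, members kept among the variable features, at least 1000 genes with at most 10% mitochondrial UMIs, removal of doublets, naming of each cell from its own markers, the mean over cells, and each sex alone; for shares, thinning and detection at 2 UMIs.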

Additional observations from a re-analysis of the deposited data

How the results depend on the processing

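No paired analysis was possible because there is 1 library. Of the 74 values of the 8 ratios between classes under alternatives, 68 moved by less than their counting interval. The exceptions were *Lgr5* in non-cycling chromaffin-like over sustentacular-like cells, which with no UMI in the second class was a lower bound of at least 11.5-fold with each cell named from its own markers, 3.27-fold in female cells and 3.42-fold in male cells; *Znrf3* in cortex-like over non-cycling chromaffin-like cells, 6.0 in female cells; and *Sostdc1* in the same comparison, 0.0444 with each cell named from its own markers and 0.243 in female cells (1 UMI on each side). The cause was not tested. With the stricter cell filter or a resolution of 0.2 a class was not separated, so 5 values could not be given, and *Rspo3* in female cells was at or under the floor. The stricter filter lost both ratios that use sustentacular-like cells (*Lgr5* and *Sfrp1*), a class with a median of 706.5 genes per cell. Of 20 shares under thinning or detection at 2 UMIs, 17 moved, all of them downwards, a direction that these settings nearly fix in advance. Depth limits what can be said of *Rspo1*, *Rspo3*, *Lgr6* and *Rnf43*, and of sustentacular-like cells, where 3 UMIs already give 13.1 CPM.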
